A study of Homo sapiens with 4 samples.

Results

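The genes described here are the nuclear genes of respiratory complexes II, III, IV and V, the subunits of these enzymes that are encoded outside mitochondrial DNA together with 8 factors that assemble complex IV. They were taken by name from a fixed list of 47 genes (4 of complex II, 9 of complex III, 11 subunits or bound factors and 8 assembly factors of complex IV, and 15 of complex V), and all 47 were found under their current symbols among the 60595 genes of the deposited table. RNA sequencing had measured gene expression in wild-type A375, an established human melanoma cell line, exposed to paroxetine hydrochloride (PH) or to DMSO, the solvent, with 2 libraries per group. Neither dose nor duration of exposure was given in the sources used here. Levels are FPKM, fragment counts scaled to transcript length and to the number of mapped fragments, so they can be compared between genes of different length, and all 47 genes passed the filter of 1 FPKM in at least 2 libraries.

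The respiratory chain passes electrons from nutrients to oxygen across the inner mitochondrial membrane. Complex II (succinate dehydrogenase) and complex I feed ubiquinone, complex III (the cytochrome bc1 complex) passes the electrons to cytochrome c, and complex IV (cytochrome c oxidase) reduces oxygen. Complexes III and IV pump protons, and complex V (ATP synthase) lets the protons flow back and makes ATP. Complex II is made from nuclear genes alone, while complexes III to V combine nuclear subunits with a few encoded in mitochondrial DNA. Nuclear promoters of respiratory genes are known to be bound by the transcription factors NRF1, GABP (an ETS family factor) and YY1.

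The libraries differed in ways that touch every value below. Summed over all genes, FPKM came to 655607 and 655004 with DMSO but 606197 and 640029 with paroxetine, and the depth in reads is unknown. The mitochondrial genome supplied 13.1% and 12.9% of this sum with DMSO, against 10.9% and 12.4% with paroxetine. With levels rescaled to the sum without mitochondrial and other abundant RNAs, 23 of the 47 genes fell (48.9%) in place of 25 and their median log2 change was -0.24 in place of -0.29. In 38 of the 47 genes paroxetine library 1 was below paroxetine library 2, against 51.7% of all genes tested, so paroxetine library 1, with the smallest sum, is the lower one for most of these genes. Separate cultures are not named for the libraries, and the p-values therefore measure the spread between these samples alone, which may be technical. In bulk RNA, fewer cells of a type and less RNA per cell cannot be told apart. Cell type markers moved with the treatment as well, and their part in the results was not tested. Of 6 melanocytic markers SOX10 rose from 193 and 181 to 275 and 271 FPKM (limma adjusted p = 0.00165), and S100B fell from 5.09 and 6.66 to 1.89 and 2.70 FPKM (adjusted p = 0.0134). MITF and S100A1 were between 3.76 and 7.73 FPKM and not called, and the pigment genes MLANA and PMEL were under 1 FPKM in all 4 libraries. Of 6 markers of other cell types PDGFRB, a marker of fibroblasts and pericytes, rose from 2.82 and 2.52 to 5.46 and 3.99 FPKM (adjusted p = 0.0485, not called when any 1 library was left out), and the other 5 were under 1 FPKM in all 4 libraries. The summed level of the melanocytic markers was 209 and 203 FPKM with DMSO and 288 and 284 FPKM with paroxetine, and that of the other 6 was 3.93 and 3.73 FPKM, then 6.07 and 5.04 FPKM. Most of the first sum was SOX10 and most of the second PDGFRB. The fitted log2 changes of S100B (-1.06), MITF (-0.35) and S100A1 (-0.13) were below 0, so the melanocytic markers did not rise as a set.

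Most of the genes were lower under paroxetine, and the falls were shallow. With limma at a Benjamini-Hochberg adjusted p under 0.05 over all 15511 genes tested, 25 of the 47 genes fell, 1 rose and 21 were not called. That is 53.2% falling, against 20.5% of all genes tested. Of all genes tested 18.1% rose and 38.6% were called either way. Both paroxetine libraries lay below both DMSO libraries in 36 of the 47 genes, against 36.3% of all genes tested, and above them in 2 (35.3% of all). The median change was -0.29 on the scale of log2(FPKM + 1), beside -0.0047 for all genes tested, and single genes ranged from -0.83 to 0.53. The summed level of the 47 genes was 8591 and 8454 FPKM under DMSO and 6527 and 7172 FPKM under paroxetine.

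The share that fell has to be read against the level of these genes. Their median DMSO level was 125.5 FPKM, against 10.8 FPKM for all genes tested. Among the 1967 genes at a mean of 50 FPKM or more, 41.6% fell, 22.2% rose, 63.8% were called either way and the median change was -0.13. Both paroxetine libraries were below both DMSO libraries in 53.4% of them and above in 31.8%. Of the 36 members at or over that level 19 fell (52.8%). Of the 11 below it 6 fell (54.5%), against 20.5% of all genes tested, whatever their level. With quantile normalization, which forces the 4 libraries onto the same distribution, the median change of the genes at 50 FPKM or more was -0.01, that of the members was -0.15, and 14 members fell (29.8%) against 32.1% of the genes at that level. The number of members that fell was also smaller without DMSO library 1 (10), without DMSO library 2 (12), without paroxetine library 1 (12), without the mean-variance trend (13) and without the filter (15). In each of these fits the share of members that fell was below that of the genes at 50 FPKM or more. Of the 26 called genes 9 kept their call and direction under all 12 alternatives: ATP5MC1, ATP5MC3, ATP5F1B, ATP5MF, ATP5MG, COX8A, SCO1, UQCR10 and, as the only rise, COX7A2L.

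**Figure D1:**
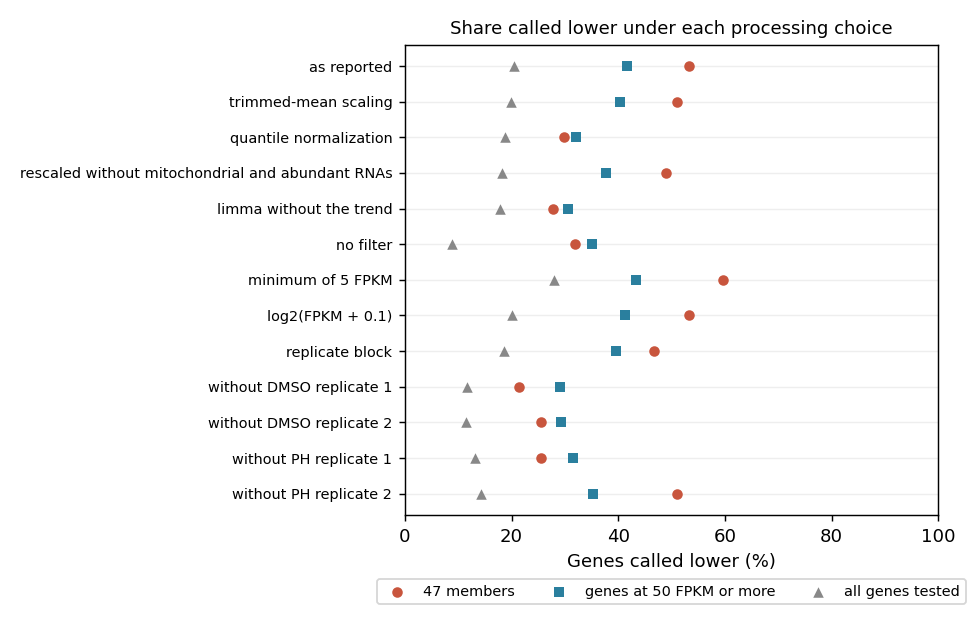
Share of genes called lower (x axis, percent) under the reported fit and the 12 alternatives (y axis), for the 47 members (circles), genes at a mean of 50 FPKM or more (squares) and all genes tested (triangles). The members stand above the squares as reported (53.2% against 41.6%) and below them with quantile normalization (29.8% against 32.1%).

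**Figure D2:**
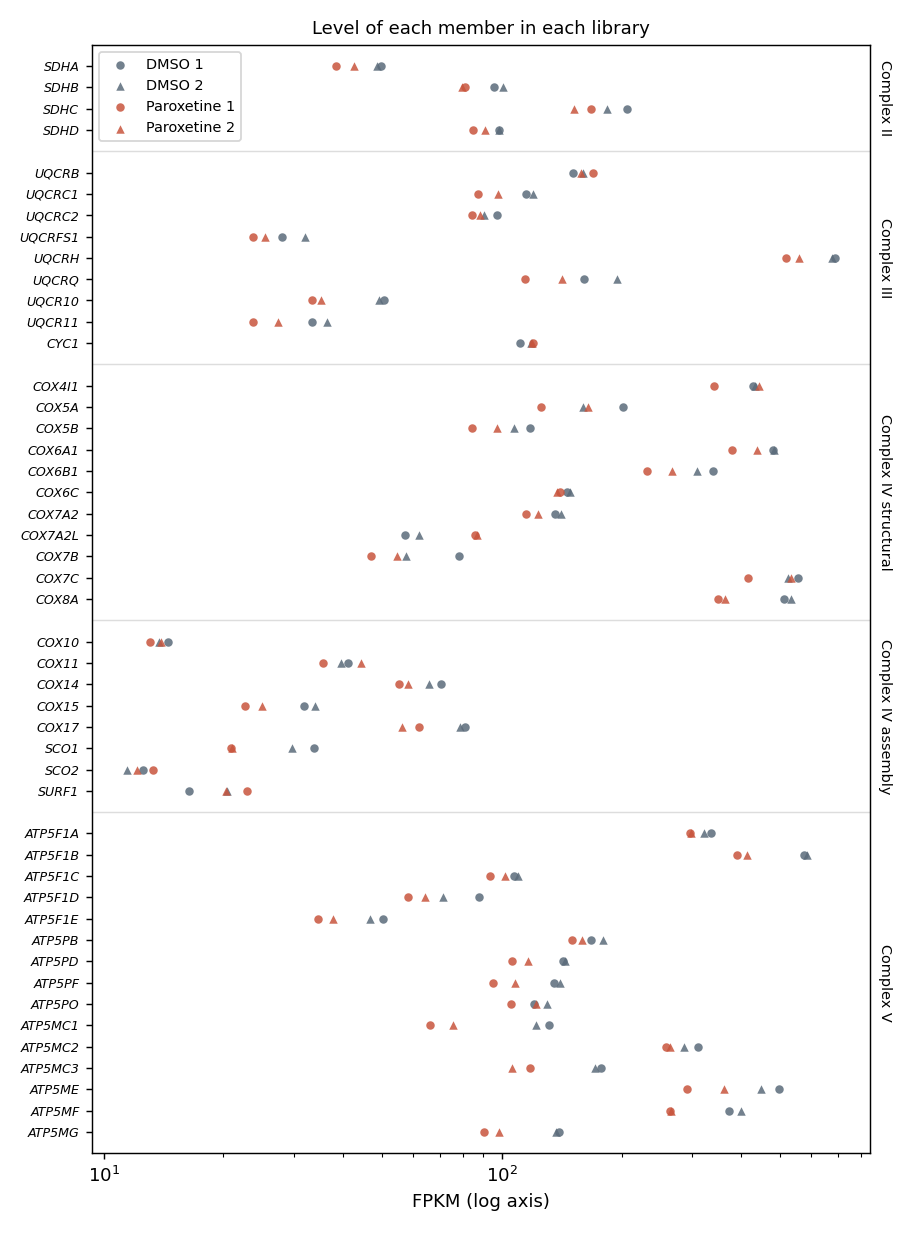
FPKM (log axis) of each of the 47 genes (y axis, by complex) in the 2 DMSO libraries (grey) and the 2 paroxetine libraries (red), circles for library 1 and triangles for library 2. Both red points lie to the left of both grey points in 36 genes.

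The stretch upstream of the transcription start was also searched for letters of the factors named above. RefSeq promoter windows (GRCh38.p14) were matched by symbol for 37 of the 47 genes, and the 250 bases before the start were read. The motifs searched, on both strands, were GCGC then any 1 base then TGCGC for NRF1, CCGGAAG for GABP and other ETS factors, and AAGATGGC for YY1. Matches of different motifs did not overlap in these genes. The ETS letters were in 16 of the 37 genes (43.2%), the NRF1 letters in 9 (24.3%) and the YY1 letters in 1, ATP5PF (2.7%). In all 35116 windows of the table the shares were 8.52%, 5.07% and 1.36%, and among the 10199 tested genes with a window 19.1%, 12.1% and 2.42%. Of the 21 matched genes that fell, 12 held the ETS letters and 5 the NRF1 letters. Of the 15 matched genes that were not called, 4 held the ETS letters and 4 the NRF1 letters. These are descriptions of letters in a window and do not show binding. Shares among genes of like level or base composition were not counted, and whether motifs go with the changes was not tested. Shown are the 4 falling genes with the largest change among those with a motif, and the gene that rose, each 5′ to 3′ as the 250 bases before the start, with motif matches in capitals. The starts are those of RefSeq and need not be the outermost start in GENCODE: the windows of SCO1 and COX7A2L lie wholly within the GENCODE gene locations, and those of COX8A, ATP5ME and UQCRQ overlap them in part.
SCO1 (chr17:10697534-10697783, minus strand): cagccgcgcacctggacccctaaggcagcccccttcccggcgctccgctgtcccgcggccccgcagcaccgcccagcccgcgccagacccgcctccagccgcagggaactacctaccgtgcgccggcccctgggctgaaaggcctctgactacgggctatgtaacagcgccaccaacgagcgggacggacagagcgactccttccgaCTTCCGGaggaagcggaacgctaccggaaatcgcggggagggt
COX8A (chr11:63974370-63974619, plus strand): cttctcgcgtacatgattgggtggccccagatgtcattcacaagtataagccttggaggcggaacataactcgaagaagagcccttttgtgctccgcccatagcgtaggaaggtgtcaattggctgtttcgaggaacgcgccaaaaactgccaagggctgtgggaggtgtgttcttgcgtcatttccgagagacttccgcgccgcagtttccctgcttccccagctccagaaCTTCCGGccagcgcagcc
ATP5ME (chr4:674277-674526, minus strand): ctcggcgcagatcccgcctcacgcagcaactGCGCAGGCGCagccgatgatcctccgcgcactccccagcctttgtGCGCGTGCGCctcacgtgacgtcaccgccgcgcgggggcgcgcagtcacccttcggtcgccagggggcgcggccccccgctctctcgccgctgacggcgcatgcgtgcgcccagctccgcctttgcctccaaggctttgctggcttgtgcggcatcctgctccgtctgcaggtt
UQCRQ (chr5:132866392-132866641, plus strand): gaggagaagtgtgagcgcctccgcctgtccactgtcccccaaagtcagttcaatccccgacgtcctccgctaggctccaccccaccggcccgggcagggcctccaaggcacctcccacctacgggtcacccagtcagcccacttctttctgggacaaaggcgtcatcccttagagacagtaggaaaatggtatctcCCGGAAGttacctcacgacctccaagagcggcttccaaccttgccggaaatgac
COX7A2L (chr2:42361218-42361467, minus strand): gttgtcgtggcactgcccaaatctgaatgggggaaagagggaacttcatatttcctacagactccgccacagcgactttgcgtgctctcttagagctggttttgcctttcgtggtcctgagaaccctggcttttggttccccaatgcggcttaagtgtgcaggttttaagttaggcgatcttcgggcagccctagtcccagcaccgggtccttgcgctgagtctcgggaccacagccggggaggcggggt
The windows of SCO1, COX8A and UQCRQ each hold 1 ETS match, that of ATP5ME holds 2 NRF1 matches, and that of COX7A2L holds none of the 3 motifs.

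In complex II, 3 of the 4 genes fell by nearly the same amount. SDHB, the iron-sulfur subunit that passes electrons from the flavin to ubiquinone, was at 95.7 and 101 FPKM under DMSO and at 81.0 and 79.6 FPKM under paroxetine, a log2 change of -0.29 ± 0.06 (SE, n = 2 libraries per group; limma adjusted p = 0.0131). SDHA, the flavoprotein that oxidises succinate, was at 49.7 and 48.7 FPKM and at 38.3 and 42.5 FPKM (adjusted p = 0.0335). SDHC, a membrane anchor, was at 206 and 184 FPKM and at 168 and 152 FPKM (adjusted p = 0.0429). The groups did not overlap in any of the 4 genes, and the ratio of the group means was 0.822 for SDHA, 0.817 for SDHB and 0.818 for SDHC. Beside these counts, 20.5% of all genes tested fell, and 36.3% had both paroxetine libraries below both DMSO libraries. At 50 FPKM or more these shares were 41.6% and 53.4%. SDHD, the other anchor, was at 98.3 and 98.5 FPKM and at 84.8 and 90.8 FPKM and was not called (adjusted p = 0.0775). None of the 3 calls was kept with quantile normalization, and the median of the complex was then -0.12 in place of -0.28. The number that fell was 1 without DMSO library 1 or paroxetine library 2 and 0 without either other library. Exon sequence of SDHA is repeated in its transcribed pseudogenes: 22.3% of the 50-base words of its longest coding transcript also occur in another expressed gene, among them SDHAP1 at 6.34 to 8.82 FPKM.

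In complex III, 5 of 9 genes fell and 0 rose. For comparison, 20.5% of all genes tested fell and 18.1% rose, and at 50 FPKM or more 41.6% fell and 22.2% rose. The falls in complex III were in 1 of the 2 core subunits, in the hinge protein and in 3 other small subunits. UQCR10, a small subunit, was at 50.7 and 49.3 FPKM under DMSO and at 33.4 and 35.2 FPKM under paroxetine, a log2 change of -0.53 ± 0.06 (limma adjusted p = 0.00288; ENSG00000184076, GRCh38 chromosome 22, 29767369 to 29770413). UQCRH, the acidic hinge protein at the cytochrome c1 docking face, had the highest level of all 47 genes, at 688 and 675 FPKM and at 519 and 559.8 FPKM (-0.34 ± 0.06, adjusted p = 0.0102). Both genes are separated between the groups by more than the spread within them. UQCRH shares 29.4% of its words with the near-identical gene UQCRHL, which was listed at 5.88 to 7.13 FPKM.

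UQCRC1, a core subunit, fell from 115 and 120.2 to 87.2 and 98.0 FPKM (adjusted p = 0.0178). UQCR11, another small subunit, fell from 33.5 and 36.3 to 23.7 and 27.5 FPKM (adjusted p = 0.0195). UQCRQ, a small subunit beside cytochrome b, had wide groups, with 161 and 195 FPKM and 114 and 142 FPKM (adjusted p = 0.0432). The other 4 genes were not called. CYC1, cytochrome c1, was at 111 and 119 FPKM and at 119.7 and 119 FPKM (0.05 ± 0.06, adjusted p = 0.491), and UQCRFS1, the Rieske iron-sulfur protein, was at 28.0 and 32.1 and at 23.8 and 25.5 FPKM (-0.27 ± 0.09, adjusted p = 0.0679). UQCRC2, the other core subunit, was at 97.3 and 90.2 FPKM and at 84.1 and 88.1 FPKM (adjusted p = 0.187). UQCRB, a small subunit, was at 151 and 160.2 FPKM and at 170.0 and 158 FPKM, so the groups overlapped (adjusted p = 0.373). With quantile normalization CYC1 and UQCRB were called higher and 2 members of the complex lower. The number that fell was 1 without DMSO library 1 or 2, 2 without paroxetine library 1 and 5 without paroxetine library 2.

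Of the 11 structural genes of complex IV, 4 fell, 1 rose and 6 were not called. Each of the 11 had a mean of 50 FPKM or more, a level at which 41.6% of genes fell and 22.2% rose. Falls were thus no more frequent here than among genes of that level. COX8A, a small membrane subunit, was at 512 and 533 FPKM under DMSO and at 350.4 and 363 FPKM under paroxetine, a log2 change of -0.55 ± 0.05 (limma adjusted p = 0.00158; ENSG00000176340, chromosome 11, 63974607 to 63976543). COX6B1, the subunit on the intermembrane side, fell from 339 and 310.0 to 232 and 268 FPKM (adjusted p = 0.0235), and COX5B, a zinc-binding subunit on the matrix side, from 118 and 108 to 84.3 and 97.2 FPKM (adjusted p = 0.0423). COX7A2, a membrane subunit, fell least, from 136 and 141 to 115 and 123 FPKM (-0.22 ± 0.06, adjusted p = 0.0372). Of these falls that of COX8A was kept with quantile normalization and the other 3 were not, and the median of the 11 genes was then -0.04 in place of -0.24. Of the 11 genes 1 fell without DMSO library 1 or paroxetine library 1, 2 without DMSO library 2 and 6 without paroxetine library 2.

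The gene that rose, COX7A2L, encodes a relative of COX7A2 that binds complexes III and IV together in supercomplexes. It was at 57.02 and 62.11 FPKM under DMSO and at 85.9 and 86.5 FPKM under paroxetine, a log2 change of 0.53 ± 0.06 (limma adjusted p = 0.00297; ENSG00000115944, chromosome 2, 42333546 to 42425088). Both paroxetine libraries stood above both DMSO libraries, the opposite of COX7A2, and the change was between 0.47 and 0.64 over the alternatives. Its longest coding transcript shares no 50-base word with another expressed gene.

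The 6 uncalled structural genes differed between the libraries of a group or changed little. COX4I1 was at 428 and 432 FPKM under DMSO and at 341 and 443 FPKM under paroxetine, and COX7C at 554 and 524 FPKM and at 415 and 532 FPKM. COX5A was at 202 and 160.3 FPKM and at 126 and 165 FPKM. In these 3 genes paroxetine library 1 was low and paroxetine library 2 was within the DMSO range or above it. COX6A1 (481 and 484 FPKM, then 379 and 439 FPKM; adjusted p = 0.0649) and COX7B (77.9 and 57.6 FPKM, then 46.9 and 54.7 FPKM; adjusted p = 0.102) did not overlap between groups. COX6C was at 146 and 149 FPKM and at 140.0 and 138 FPKM (adjusted p = 0.219), and its groups did not overlap either. COX6A1 shares 34.6% of its words with COX6A1P2, a processed pseudogene listed at 17.15 to 24.75 FPKM.

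Among the 8 assembly factors of complex IV, 4 fell and 4 were not called, with both outcomes among the copper and the haem factors. Whether the changes of these factors differ from each other was not tested. The share that fell was 20.5% for all genes tested and 41.6% at 50 FPKM or more. Of the factors that insert copper, SCO1 was at 33.8 and 29.7 FPKM under DMSO and at 20.9 and 21.0 FPKM under paroxetine, a log2 change of -0.58 ± 0.09 (limma adjusted p = 0.00591; ENSG00000133028, chromosome 17, 10672474 to 10698375). COX17, the chaperone that hands copper to SCO1 and COX11, fell from 80.8 and 78.5 to 61.96 and 56.12 FPKM (-0.43 ± 0.07, adjusted p = 0.00749). SCO2, the paralog of SCO1, was at 12.6 and 11.5 FPKM and at 13.3 and 12.1 FPKM, and COX11 at 41.0 and 39.4 FPKM and at 35.6 and 44.3 FPKM. Neither was called (adjusted p = 0.616 and 0.923), and the groups overlapped in both. COX11 shares 28% of its words with expressed genes, nearly all of it exon sequence of TOM1L1 on the opposite strand.

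Of the haem enzymes, COX15, which makes haem A, fell from 31.82 and 33.95 to 22.6 and 25.0 FPKM (-0.45 ± 0.08, adjusted p = 0.0111). COX10, which makes its precursor haem O, was at 14.5 and 13.7 FPKM and at 13.11 and 13.96 FPKM (adjusted p = 0.654), and whether both changes differ was not tested. COX14, a factor for the newly made MT-CO1 subunit, fell from 70.5 and 65.8 to 55.2 and 58.1 FPKM (adjusted p = 0.0278). SURF1, an early assembly factor, was at 16.4 and 20.5 FPKM and at 22.9 and 20.3 FPKM (0.22 ± 0.13, adjusted p = 0.228). Of the 8 genes 0 rose, and 2 fell without DMSO library 1, DMSO library 2 or paroxetine library 1.

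By median log2 change the falls were deepest in complex V, and whether the complexes differ was not tested. Of the 15 genes of complex V 9 fell, 0 rose and 6 were not called, and in 14 both paroxetine libraries lay below both DMSO libraries. Among all genes tested 20.5% fell and 18.1% rose, and 36.3% had both paroxetine libraries below. At 50 FPKM or more these shares were 41.6%, 22.2% and 53.4%. The median log2 change of the 15 genes was -0.42. It was -0.28 with quantile normalization, under which 8 of the 15 genes fell. Without DMSO library 1 the number was 5. The summed level of the 15 genes was 3353 and 3290 FPKM under DMSO and 2420 and 2594 FPKM under paroxetine.

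The c ring, the rotor that turns as protons pass, is encoded by 3 genes whose mature proteins are known to be the same and whose presequences differ. ATP5MC1 was at 131 and 122 FPKM under DMSO and at 66.2 and 75.6 FPKM under paroxetine, the largest fall among the 47 genes, with a log2 change of -0.83 ± 0.08 (limma adjusted p = 0.0017; ENSG00000159199, chromosome 17, 48892765 to 48895871). ATP5MC3 was at 178 and 171 FPKM and at 118 and 106 FPKM, a log2 change of -0.64 ± 0.07 (adjusted p = 0.002; ENSG00000154518, chromosome 2, 175176258 to 175184607). ATP5MC2, the most abundant of the 3, was at 310.4 and 287 FPKM and at 259 and 265 FPKM and was not called (-0.19 ± 0.06, adjusted p = 0.0594). Both paroxetine libraries were below both DMSO libraries in all 3, against 36.3% of all genes tested and 53.4% at 50 FPKM or more. The share of ATP5MC2 in the summed FPKM of the 3 c-ring genes was 50.1% and 49.4% under DMSO and 58.5% and 59.3% under paroxetine. That of ATP5MC1 was 21.2% and 21.0%, then 14.9% and 16.9%. Whether the 3 changes differ from each other was not tested.

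**Figure D3:**
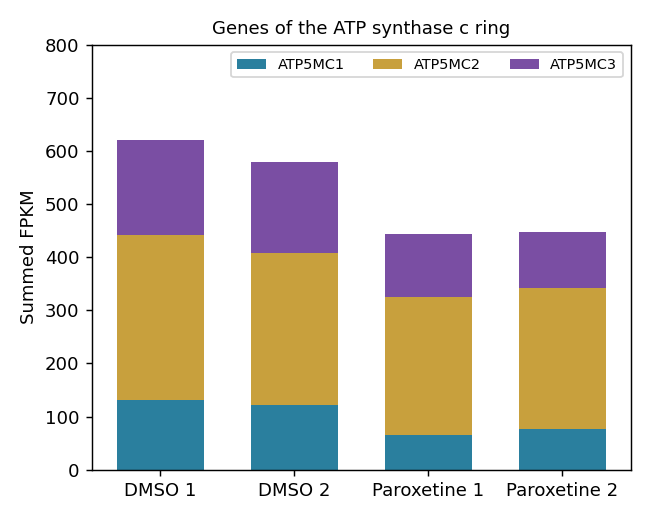
Summed FPKM (y axis) of the c-ring genes ATP5MC1, ATP5MC2 and ATP5MC3 (stacked bars from 0) in each library. The sum was 620 and 580 FPKM under DMSO and 443 and 447 FPKM under paroxetine, and the middle part, ATP5MC2, shrank least.

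All 3 small membrane subunits fell by similar amounts. ATP5MF was at 372 and 399 FPKM under DMSO and at 265 and 267 FPKM under paroxetine (-0.53 ± 0.06, limma adjusted p = 0.002). ATP5MG was at 139.5 and 137 FPKM and at 90.3 and 98.5 FPKM (-0.55 ± 0.06, adjusted p = 0.00253). ATP5ME was at 499 and 447 FPKM and at 292 and 361 FPKM (-0.54 ± 0.12, adjusted p = 0.0181). The paroxetine libraries were the lower ones in each, with the widest gap within a group in ATP5ME. ATP5ME shares 27.2% of its words with MYL5 on the opposite strand (8.96 to 14.7 FPKM), ATP5MG 20.8% with neighbouring genes on both strands, and ATP5MF 15.4%, mostly with the read-through gene ATP5MF-PTCD1 (1.71 to 2.74 FPKM). Whether the authors counted by strand was not given in the sources used here, so opposite-strand partners are uncertain.

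In the catalytic head, ATP5F1B, the beta subunit that carries the catalytic sites, was at 575 and 585 FPKM under DMSO and at 389 and 412 FPKM under paroxetine, a log2 change of -0.53 ± 0.06 (limma adjusted p = 0.00186; ENSG00000110955, chromosome 12, 56638175 to 56646068). Its partner ATP5F1A, the alpha subunit, which stands in equal number in the enzyme, was at 336 and 322 FPKM and at 297 and 299 FPKM (-0.14 ± 0.05, adjusted p = 0.0775). The ratio of the group means was 0.69 for ATP5F1B and 0.906 for ATP5F1A, and whether these differ was not tested. Of the central stalk, ATP5F1E, the epsilon subunit, fell from 50.5 and 46.7 to 34.7 and 37.6 FPKM (adjusted p = 0.0109). ATP5F1C, the gamma subunit, was at 107 and 109.9 FPKM and at 93.3 and 102 FPKM (adjusted p = 0.107). ATP5F1D, the delta subunit, was at 87.5 and 71.1 FPKM and at 58.1 and 64.2 FPKM (adjusted p = 0.0536), the uncalled member nearest to the threshold. The called member nearest to it was UQCRQ.

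In the peripheral stalk, which holds the head still, ATP5PD fell from 143 and 144 to 106 and 117 FPKM (-0.36 ± 0.06, limma adjusted p = 0.00937) and ATP5PF from 136 and 139.8 to 95.2 and 108 FPKM (-0.44 ± 0.07, adjusted p = 0.00881). ATP5PB was at 168 and 179 FPKM and at 149.8 and 159 FPKM (adjusted p = 0.0865), and ATP5PO at 121 and 130.2 FPKM and at 106 and 122 FPKM (adjusted p = 0.24). ATP5PO was the gene of complex V in which the groups overlapped. ATP5PF shares 16% of its words with GABPA, which lies head to head with it on the opposite strand (11.3 to 14.3 FPKM).

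**Figure D4:**
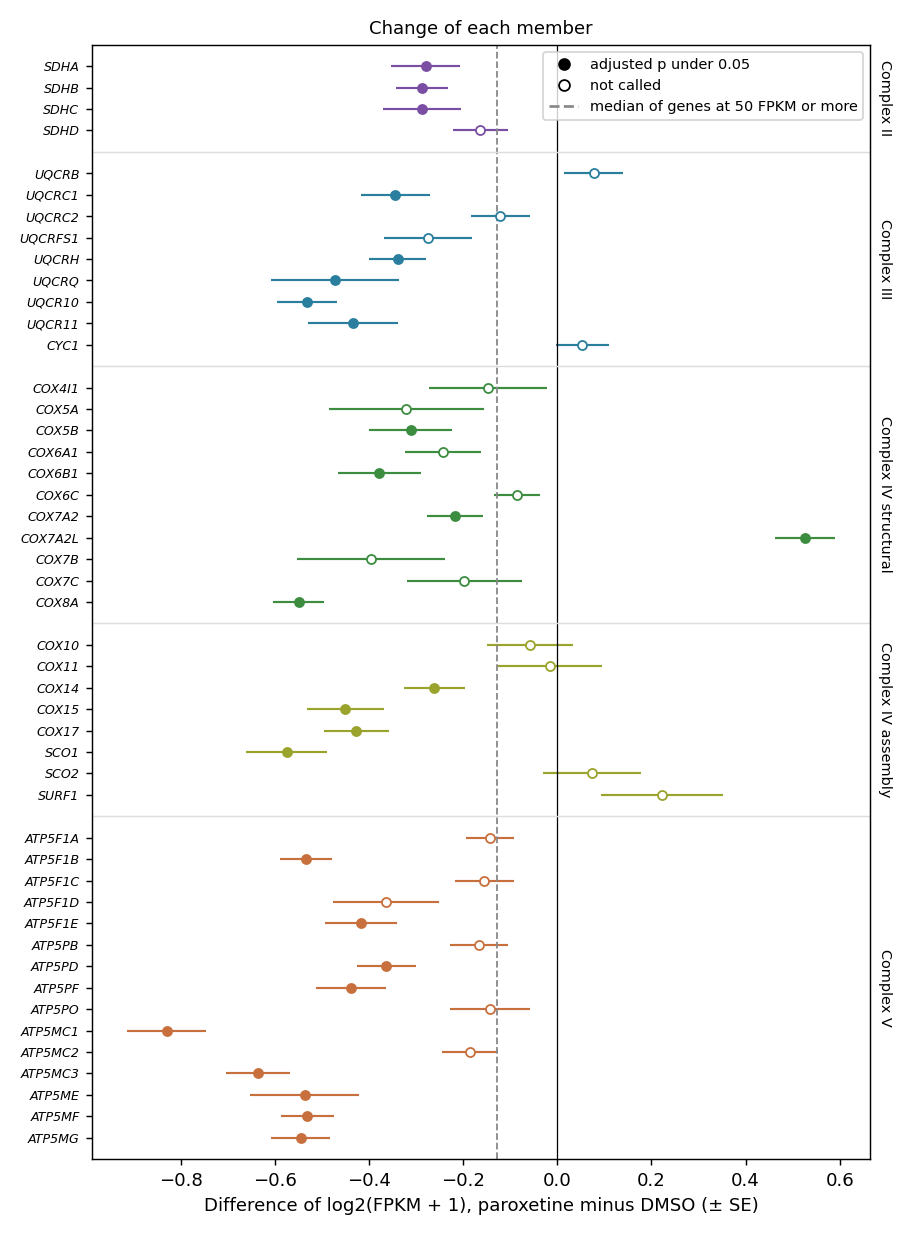
Difference of log2(FPKM + 1), paroxetine minus DMSO, with its SE (x axis), for each of the 47 genes by complex (y axis). Filled points passed an adjusted p under 0.05, and the dashed line is the median of genes at 50 FPKM or more (-0.13). COX7A2L is the filled point to the right of 0 (0.53).

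Other genes of the same enzymes, which the list of 47 leaves out, were counted in the same fit. In that fit 20.5% of all genes tested fell and 18.1% rose, and at 50 FPKM or more 41.6% fell and 22.2% rose. Of the 6 mitochondrially encoded subunits of complexes III to V, 3 fell and 0 rose. MT-CO3 fell from 9672 and 9127 to 4941 and 5395 FPKM (limma adjusted p = 0.00213), MT-ATP6 from 7713 and 6672 to 3403 and 4138 FPKM and MT-CO1 from 7627 and 7821 to 4832 and 5399 FPKM. MT-CO2 was at 7622 and 7209 FPKM and at 7860 and 8615 FPKM, the only one of the 6 with a fitted change above 0 (0.15 ± 0.10, adjusted p = 0.268; called higher with quantile normalization). The number that fell was 1 without DMSO library 1 and 5 without paroxetine library 2. Of 8 further subunits and partners of the chain 5 fell and 1 rose: NDUFA4, now counted with complex IV, from 61.3 and 60.0 to 37.7 and 37.0 FPKM, CYCS, cytochrome c, from 106 and 123 to 80.1 and 80.6 FPKM, ATP5MK, a membrane subunit of complex V, from 433 and 350.4 to 266 and 291 FPKM, and ATP5IF1, its inhibitor, and HIGD1A, by smaller amounts. The rise was in HIGD2A, which takes part in supercomplex assembly, from 106 and 106 to 125 and 126 FPKM (adjusted p = 0.0143), and was not called when any 1 library was left out. The number of these 8 genes that fell was then 2 (without paroxetine library 1) to 4, and 3 without DMSO library 1 and with quantile normalization.

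Of 18 further assembly factors of complex IV, 8 fell and 1 rose. COX16 fell from 25.3 and 24.7 to 13.7 and 14.9 FPKM, COA1 from 79.4 and 82.6 to 45.2 and 49.8 FPKM and PET100 from 37.6 and 39.5 to 22.6 and 25.1 FPKM. COX19, a copper-related factor, rose from 1.82 and 2.41 to 5.93 and 4.46 FPKM (limma adjusted p = 0.0153), and was called without paroxetine library 2 but not without any other 1 library. Of 7 complex III assembly factors 4 fell and 0 rose, LYRM7, a chaperone of the Rieske protein, from 11.6 and 12.8 to 5.87 and 5.44 FPKM, UQCC2 from 48.4 and 48.1 to 30.3 and 27.9 FPKM, BCS1L, which inserts the Rieske protein, from 19.7 and 20.2 to 13.2 and 12.3 FPKM, and UQCC3. The call of UQCC3 (limma adjusted p = 0.0471) was kept in 4 of 13 fits, the reported fit included. Of 5 factors of complex V, ATPAF1, which chaperones the beta subunit, fell from 38.1 and 35.6 to 24.0 and 27.3 FPKM (not called without DMSO library 1). Of 4 factors of complex II, limma called 0, with 1 at an unadjusted p under 0.05 and 1 lower without DMSO library 1 or paroxetine library 2. Without paroxetine library 1 or 2 the number of falling complex IV factors was 4, and without DMSO library 1 it was 5. Of 7 tissue-restricted isoforms only UQCRHL and COX7B2 (5.94 to 10.9 FPKM) passed the filter, and limma called 0 (0 at an unadjusted p under 0.05).

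Of 12 regulators of mitochondrial gene expression 5 fell and 2 rose. TFAM, which packages mitochondrial DNA and takes part in starting its transcription, fell from 30.3 and 28.6 to 16.1 and 16.4 FPKM (limma adjusted p = 0.00133). GABPB1, the partner subunit of GABPA, fell from 16.6 and 21.0 to 11.5 and 8.88 FPKM (limma adjusted p = 0.015). NRF1 fell from 9.15 and 10.3 to 5.01 and 6.31 FPKM, and the mitochondrial methyltransferase genes TFB1M and TFB2M also fell. ESRRA, a nuclear receptor of this programme, rose from 26.6 and 26.3 to 43.0 and 43.8 FPKM (adjusted p = 0.00125). Its coactivator PPARGC1A, the other gene called higher, was at 0.730 and 0.512 FPKM and at 2.25 and 1.63 FPKM. PPARGC1A passed the filter only through the paroxetine libraries, so its call is not taken as support for a rise. YY1 was at 29.8 and 27.0 FPKM and at 28.9 and 27.1 FPKM (adjusted p = 0.891). The number of regulators that fell was 2 to 4 when a library was left out (2 without DMSO library 2, 3 without DMSO library 1 or paroxetine library 1), and it was 2 without the filter. In each of these fits 1 regulator rose, ESRRA, which was called under all 12 alternatives.

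Complex I, the enzyme most like these, had 25 of 37 nuclear subunits lower (67.6%) and 0 higher, with a median log2 change of -0.32. Its largest fall was in NDUFB6, from 61.2 and 61.8 to 34.3 and 28.1 FPKM (limma adjusted p = 0.00205), deeper than that of any of the 47 genes. Over all genes tested 20.5% fell, and at 50 FPKM or more 41.6% fell. Whether complex I differs from complexes II to V was not tested. With quantile normalization 16 of the 37 fell, and without 1 library 9 (DMSO library 1), 13 (DMSO library 2), 15 (paroxetine library 1) or 18 (paroxetine library 2).

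**Figure D5:**
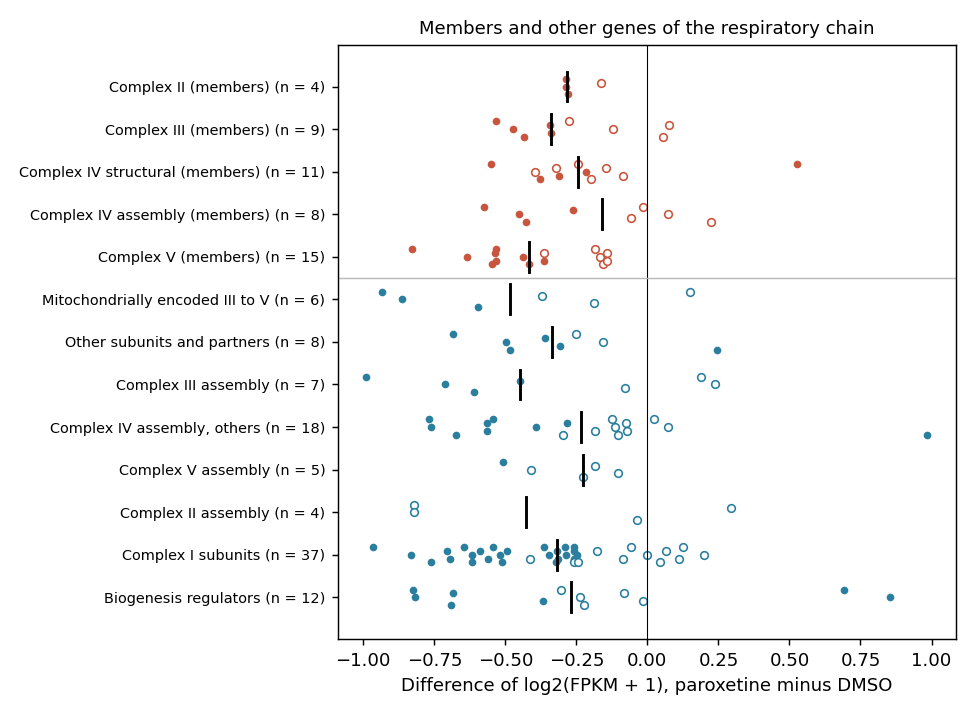
Difference of log2(FPKM + 1), paroxetine minus DMSO (x axis), of each tested gene in the members by complex (red, top 5 rows) and in other lists of respiratory chain genes (blue). Filled points passed an adjusted p under 0.05 and black bars are medians, which lie below 0 in each row and range from -0.48 (mitochondrially encoded subunits) to -0.16 (assembly members of complex IV).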

How the data were processed

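RNA was extracted with Trizol and sequenced in paired-end mode, per the labels' protocols, which name a directional kit, ribosomal RNA depletion and poly(A) fractions without saying which applied to a library. The authors deposited FPKM values. Per the submitters' processing notes, CASAVA 1.4, HISAT2 2.1.0 (hg38) and Cufflinks 2.2.1 were used. Annotation, scaling, strand and the treatment of multiply mapped reads: not given in the sources used here. Without read numbers, depth is unknown. Column names tied the 4 FPKM columns to the samples, and 12 further per-sample columns were left unused.

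The test was limma 3.58.1, two-sided and with a mean-variance trend, on log2(FPKM + 1) of the 15511 genes that reached 1 FPKM in 2 or more libraries. It had 2 residual degrees of freedom and 3.32 from the prior. P-values were adjusted after Benjamini and Hochberg across these genes. A fold on this scale understates that of low genes. Called means an adjusted p under 0.05. Every member was named, and in other lists up to 4 called genes with the largest change and non-overlapping groups. Others named were chosen after their values were seen. Members and lists were chosen with earlier results of these data known. Shared sequence was counted as 50-base words of each member's longest coding transcript found in transcripts of other genes (GENCODE release 29, which also gave locations on GRCh38), for genes at 1 FPKM in at least 2 libraries. The titles do not say that replicate numbers mark a shared day, so they were not used as pairs. Fits were run in R 4.3.3; tables and plots were made in Python 3.11.15 with matplotlib 3.10.9.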

Additional observations from a re-analysis of the deposited data

How the results depend on the processing

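Alternatives were 3 other scalings, dropping the trend, dropping the filter or raising it to 5 FPKM, a pseudocount of 0.1, a replicate block, and leaving out each library. The number of members that fell, 25 as reported, was 14 with quantile normalization, 13 without the trend, 15 without the filter and 10 to 24 when a library was left out. The number that rose was 1 as reported and in the other fits except quantile normalization, where it was 3. The median change of the members was -0.15 with quantile normalization and -0.36 to -0.23 when a library was left out. By complex, with quantile normalization, without the trend and without the filter in turn, the falling genes numbered 0, 0 and 1 in complex II, 2, 1 and 2 in complex III, and 1, 1 and 1 among structural genes of complex IV. When a library was left out they numbered 0 to 1 in complex II, 1 to 5 in complex III, 1 to 6 among structural and 2 to 3 among assembly genes of complex IV, and 5 to 9 in complex V. The cause was not tested, other than that fewer samples or more genes entered some of these fits.

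The members whose fitted change turned positive were all among the uncalled genes. With quantile normalization these were UQCRC2 (0.027), COX4I1 (0.061), COX6A1 (0.000114), COX6C (0.088), COX7C (0.074), COX11 (0.046), ATP5F1A (0.033), ATP5F1C (0.011), ATP5PB (0.036) and ATP5PO (0.048). COX11 also turned with trimmed-mean scaling (0.000975), after rescaling without mitochondrial and abundant RNAs (0.034), without DMSO replicate 1 (0.011) and without PH replicate 1 (0.14). With a library left out COX11 ranged from -0.17 to 0.14 and COX4I1 from -0.34 to 0.042. With the replicate block 22 members fell and 1 rose. Libraries with the same number did not deviate together (r = -0.0425 over 15511 genes), and the labels give no shared day, so the numbers were not taken as pairs. Depth is unknown, and 2 libraries per group limit what the test can call.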

Other observations

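Carriers and pores that serve ATP synthase moved in both directions. Of 7 genes 3 fell and 2 rose, beside 20.5% and 18.1% of all genes tested. Among genes at a mean of 50 FPKM or more 41.6% fell and 22.2% rose, so this mix is not read as particular to the carriers and pores. SLC25A5, the adenine nucleotide carrier with the highest level here, fell from 505 and 531 to 386 and 386 FPKM (limma adjusted p = 0.00337), while its paralogs SLC25A4 and SLC25A6 rose from 26.2 and 28.8 to 39.2 and 39.3 FPKM (adjusted p = 0.00576) and from 260.3 and 249 to 302 and 293 FPKM (adjusted p = 0.0237). The outer membrane pores VDAC1 and VDAC3 fell from 202 and 218 to 147 and 149.9 FPKM and from 65.6 and 64.6 to 45.9 and 45.8 FPKM. VDAC2 was at 75.2 and 80.4 FPKM and at 81.3 and 77.6 FPKM (adjusted p = 0.732), and SLC25A3, the phosphate carrier, at 508 and 519.9 FPKM and at 479.7 and 506 FPKM (adjusted p = 0.42; called higher with quantile normalization). The calls of SLC25A4, SLC25A5, VDAC1 and VDAC3 held under all 12 alternatives, and that of SLC25A6 held in 6 of them.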
